A study of Homo sapiens with 36 samples.

Results

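Levels of 7 transcription factor genes were followed across 36 RNA-seq libraries of human leukemia cells: the C/EBP family members CEBPA, CEBPB, CEBPD, CEBPE and CEBPG, together with SPI1 and IRF8. They were picked by symbol as factors of the myeloid programme, with earlier results of these data known. All 7 were listed among 60642 genes of the K562 degron table and among 57820 genes of the HEL table, and 4 of the 7 (CEBPB, CEBPD, CEBPG and SPI1) among 13707 genes of the LDB1 table.

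C/EBP proteins bind DNA as leucine zipper dimers and can pair with each other and with related factors. In blood formation CEBPA directs progenitors into the granulocyte and monocyte lineages, CEBPE serves late granulocyte maturation, CEBPB serves granulocyte production under stress and macrophage genes, CEBPD is induced by cytokines and in inflammation, and CEBPG, which lacks an activation domain of its own, acts as a dimer partner. SPI1 encodes PU.1, an ETS factor of myeloid and B cells whose activity opposes that of GATA1, the central erythroid factor, and IRF8 is a partner of PU.1 in monocytes and dendritic cells.

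The series concerns LMO2, an adaptor that binds no DNA itself, LDB1, which bridges LMO2 complexes, and TAL1, which binds DNA and recruits LMO2. In the K562 degron set, 24 libraries came from a line of chronic myeloid leukemia in blast crisis with erythroid features: LMO2 degron cells under the labels rep 1 and rep 2 (taken as degron lines 1 and 2), a line called LMO2 control, and parental cells. All 4 were sampled before dTAGv1 (day 0) and after 1 and 4 days of it, 2 libraries each; the labels give its dose as 750 uM, a unit that may be a slip. dTAGv1 marks a degron-tagged protein for breakdown and was also given to the LMO2 control and parental cells, together called the control lines here. The sources used here do not say what the LMO2 control line carries or whether a line is 1 clone. In the HEL set, an erythroleukemia line was electroporated with TAL1 siPool 1, TAL1 siPool 2 or a non-targeting siRNA pool (3 libraries each). In the LDB1 set, K562 cells carried LDB1 shRNA 1, LDB1 shRNA 2 or a control shRNA (1 library each, and so no test). All RNA was selected by polyA, and K562 and HEL libraries came from different providers.

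Depth was 17197016 to 26321516 reads per K562 degron library, as recovered from the FPKM, and 15869619 to 27029836 counts per HEL library; that of the LDB1 libraries is unknown. The targeted genes were examined first. A degron acts on protein, so LMO2 RNA does not test its loss: on day 4 it stood at 155 to 271 FPKM in the degron lines, 286 to 443 FPKM in the LMO2 control line and 37.8 to 44.2 FPKM in parental cells. The lines already differed in LMO2 RNA on day 0, at 132 to 157 FPKM in the degron lines, 248 and 252 FPKM in the LMO2 control line and 37.2 and 32.3 FPKM in parental cells. TAL1 stood at 165 to 190 CPM with siPool 1, at 179 to 195 CPM with siPool 2 and at 438 to 490 CPM with the non-targeting pool. LDB1 stood at 62.4 and 69.6 TPM with its shRNAs and at 468 TPM with the control shRNA. All 10 erythroid markers fixed for a check of the cell lines were read in both. The labels call the K562 degron and HEL libraries biological replicates but do not say whether those of a group came from separate cultures, so p-values measure the spread between these libraries. In bulk RNA, fewer cells that make a transcript and less of it per cell cannot be told apart.

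Promoter sequences from RefSeq (GRCh38.p14) matched 5 of the 7 genes by symbol, CEBPD and SPI1 not among them. The 250 bases before the first start site of CEBPB (chr20:50190333-50190582, + strand) and CEBPG (chr19:33373459-33373708, + strand), whose RNA was read in every library, are set beside those of IRF8 (chr16:85902580-85902829, + strand), which was nearly unread. Capitals mark E-boxes (CANNTG), the motif class that TAL1 dimers bind.
CEBPB: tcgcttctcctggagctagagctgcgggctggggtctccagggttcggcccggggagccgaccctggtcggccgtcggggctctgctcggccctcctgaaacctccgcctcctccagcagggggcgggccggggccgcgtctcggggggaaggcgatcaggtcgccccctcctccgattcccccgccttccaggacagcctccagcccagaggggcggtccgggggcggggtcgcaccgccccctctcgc
CEBPG: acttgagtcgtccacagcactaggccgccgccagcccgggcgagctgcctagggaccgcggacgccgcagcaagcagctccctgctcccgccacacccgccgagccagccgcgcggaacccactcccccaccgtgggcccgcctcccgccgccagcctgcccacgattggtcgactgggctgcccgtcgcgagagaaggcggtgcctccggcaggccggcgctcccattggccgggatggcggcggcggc
IRF8: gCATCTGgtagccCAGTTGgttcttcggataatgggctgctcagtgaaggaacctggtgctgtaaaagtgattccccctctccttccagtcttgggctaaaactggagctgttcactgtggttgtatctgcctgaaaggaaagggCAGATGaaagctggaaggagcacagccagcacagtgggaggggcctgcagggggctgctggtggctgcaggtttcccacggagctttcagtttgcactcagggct
On both strands, E-boxes occurred 3 times in the IRF8 window and not in the other two windows, while 61.8% of 35116 promoter windows of this length hold at least 1. GATA motifs (GATA with A or T before it and A or G after it, in 22.3% of windows) and the C/EBP motif TTGCNNAA (in 9.05%) were in none of these 3 windows. GC content was 75.6% for CEBPB, 76.0% for CEBPG and 55.6% for IRF8. Among windows not printed, that of CEBPA, with at most 16 reads per K562 degron library, held no E-box at 81.2% GC. That of CEBPE, with at most 13 reads, held 1 E-box at 57.2% GC, and a second IRF8 window held 1 at 53.6% GC. A match of letters is a description and not a binding site.

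CEBPD was the member that rose when dTAGv1 was given to degron cells. Its FPKM was 15.8 and 18.0 on day 0, 24.7 and 26.6 on day 1 and 55.5 and 63.5 on day 4 in degron line 1. In degron line 2 it was 28.9 and 24.01 on day 0, 32.0 and 42.8 on day 1 and 65.0 and 63.5 on day 4. In both degron lines each day 4 library lay above each earlier library of that line. The LMO2 control line stood at 4.51 and 5.70 FPKM on day 0, 4.32 and 4.14 on day 1 and 6.002 and 5.03 on day 4. Parental cells stood at 5.39 and 6.53 FPKM on day 0, 7.09 and 8.16 on day 1 and 7.498 and 7.43 on day 4. Every degron library, day 0 included, lay above every control-line library, the lowest at 15.8 FPKM and the highest control-line library at 8.16 FPKM.

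**Figure D1:**
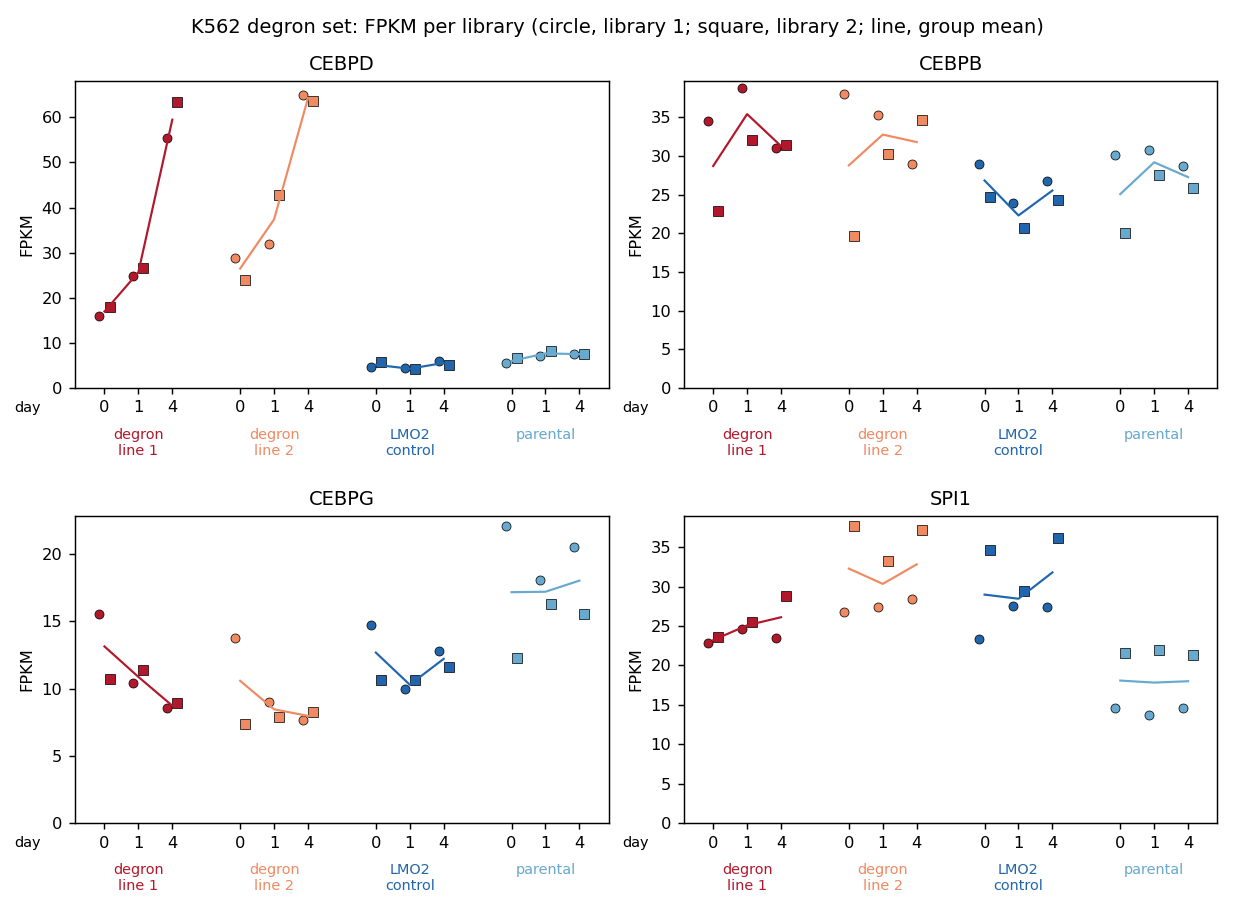
FPKM (linear axes from 0) of CEBPD, CEBPB, CEBPG and SPI1 in each K562 degron-set library by line and day of dTAGv1; circles and squares are libraries 1 and 2 of a group and lines join group means. CEBPD separates the degron lines (15.8 to 65.0 FPKM) from the control lines (4.14 to 8.16 FPKM), whereas CEBPB overlaps between them over all days.

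The degron-specific change sets the mean change since day 0 in degron lines against that in control lines, as a difference on the log2(FPKM + 1) scale. For CEBPD it was 1.31 ± 0.15 on day 4 (SE; limma adjusted p = 5.28e-05), with a 95% interval of 0.99 to 1.64 and was the 157th largest rise of 15348 tested genes. A gene was called at an adjusted p under 0.05. CEBPD was the only one called of the 4 members that passed the filter of at least 1 FPKM in at least 2 libraries, where 19.8% of all tested genes were called, 11.6% as higher. These were 1784 genes higher and 1256 lower by limma; edgeR on recovered reads, among fewer genes, called 945 higher and 1208 lower (14.7% in all). The median change of all tested genes was 0.06. On day 1 the change of CEBPD was 0.48 ± 0.15 (limma adjusted p = 0.368) and was not called, in a comparison that called 0.0782% of genes and no member.

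Between day 1 and day 4, CEBPD rose further in degron lines by 0.84 ± 0.15 relative to the control lines (limma adjusted p = 0.00453), the only member called where 7.11% of genes were (591 higher and 501 lower by limma, 211 higher and 429 lower by edgeR on recovered reads). With degron line 2 alone this later rise was 0.64 ± 0.19 and not called (limma adjusted p = 0.0672). Group means on day 4 were 59.5 ± 5.69 FPKM in degron line 1 and 64.3 ± 1.06 in degron line 2 (SD, n = 2 each), which is 3.52 times and 2.43 times the mean of the same line on day 0. The difference between the lines in this change was 0.50 ± 0.22 (limma adjusted p = 1), with a 95% interval of 0.04 to 0.96, and 0.013% of genes were called. In the control lines the change to day 4 was 0.19 ± 0.11 (limma adjusted p = 1), with an interval of -0.04 to 0.42. No gene was called there by limma or by edgeR on recovered reads, while 509 genes had an unadjusted p under 0.05 by limma and 436 by edgeR.

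Part of the CEBPD difference stood before dTAGv1. On day 0 the degron lines averaged 21.7 ± 5.92 FPKM and the control lines 5.53 ± 0.836 FPKM (SD, n = 4 each), a difference of 1.77 ± 0.11 on the log2 scale (limma adjusted p = 8.91e-08). It was the only member called where 16.8% of genes were, and the 38th largest rise of 15348. Against parental cells alone the day 0 difference was 1.98 ± 0.15 in degron line 2 (limma adjusted p = 1.18e-06) and 1.37 ± 0.15 in degron line 1 (limma adjusted p = 7.32e-05), where 12.9% and 7.27% of genes were called. The LMO2 control line differed from parental cells by -0.19 ± 0.15 and was not called, where 1.82% of genes were. Degron line 2 lay above degron line 1 on day 0 by 0.61 ± 0.15; limma gave an adjusted p of 0.0577 without the replicate number as a block (1.79% of genes called) and 0.0194 with it (4.02%). On day 4 the difference of degron over control lines was 3.08 ± 0.11 (limma adjusted p = 5.27e-11), at 61.9 ± 4.33 FPKM in degron lines and 6.49 ± 1.19 FPKM in control lines (SD, n = 4 each), a ratio of 9.53. This day 4 comparison of levels and those between single lines were added after the values were seen.

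In order of group mean, CEBPD was highest in degron line 2 on day 4, then in degron line 1 on day 4, and these neighbours met at 63.5 FPKM. Degron line 2 on day 1 followed at 37.4 ± 7.64 FPKM. Degron line 2 on day 0 (26.5 ± 3.46) and degron line 1 on day 1 (25.6 ± 1.29) overlapped, and degron line 1 on day 0 was the lowest degron group at 16.9 ± 1.54 FPKM (SD, n = 2 each). The 6 control-line groups had means of 4.23 to 7.63 FPKM.

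**Figure D2:**
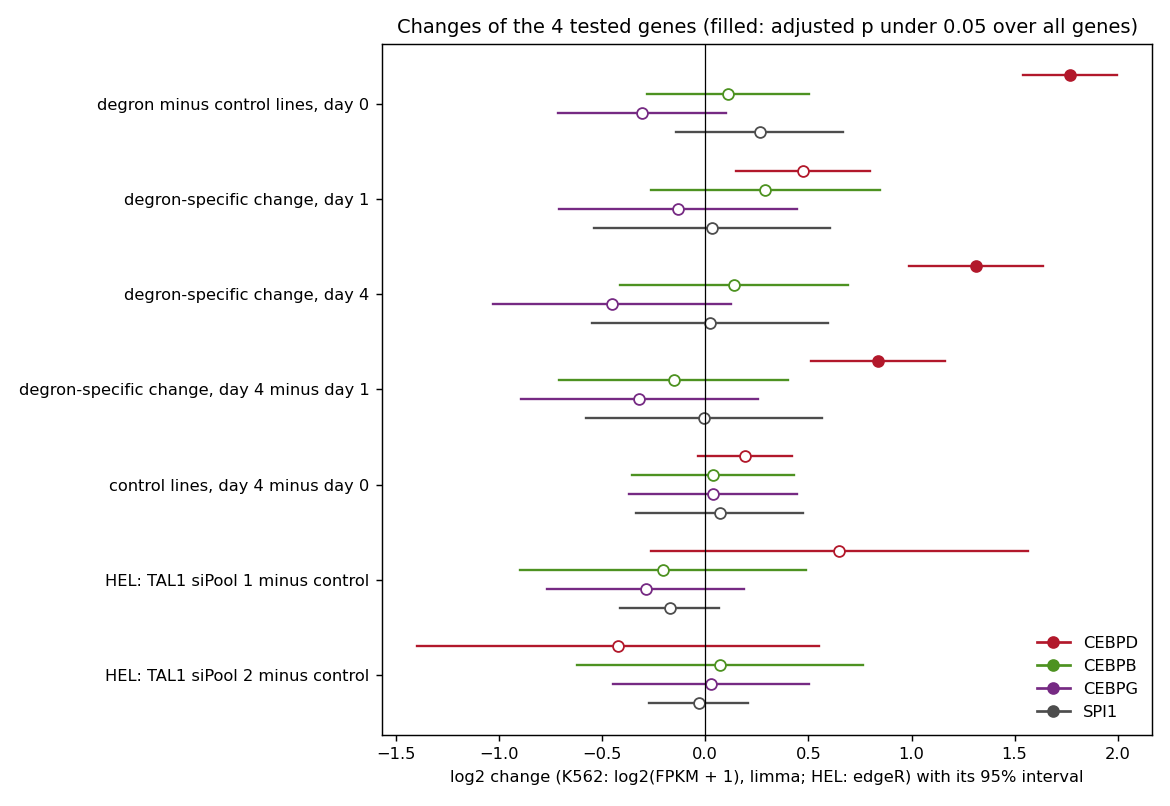
Log2 changes of the 4 tested members with 95% intervals, in limma for 5 K562 comparisons and in edgeR for TAL1 siPools 1 and 2 in HEL cells; filled points passed an adjusted p under 0.05 over all genes. CEBPD is filled on day 0 (1.77), in the degron-specific change on day 4 (1.31) and from day 1 to day 4 (0.84), and all other points are open.

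CEBPB, the most abundant C/EBP gene of the control lines, did not pass the test in any comparison. Its FPKM on day 4 was 29.01 to 34.6 in degron lines and 24.3 to 28.7 in control lines, which do not overlap. On day 0 it was 19.6 to 38.0 FPKM in degron lines and 20.0 to 30.1 FPKM in control lines, which do. The difference of degron from control lines on day 4 was 0.25 ± 0.18 and not called (limma adjusted p = 0.271), where 54.2% of genes were. The degron-specific change on day 4 was 0.14 ± 0.26 (limma adjusted p = 0.757), and its 95% interval of -0.42 to 0.69 leaves room for changes in either direction. CEBPB-AS1, an antisense gene, was listed at 1.28 to 2.27 FPKM in degron lines and 0.247 to 0.814 FPKM in control lines on day 4; the sources used here give no strand setting for the counting, so reads of the pair cannot be told apart.

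CEBPG stood lower in degron cells on day 4. Its FPKM was then 8.57 and 8.89 in degron line 1 and 7.70 and 8.24 in degron line 2, against 12.8 and 11.6 in the LMO2 control line and 20.5 and 15.5 in parental cells. The groups do not overlap, and the LMO2 control line lay between degron and parental cells. The difference of degron from control lines on day 4 was -0.76 ± 0.19 (limma adjusted p = 0.00359), where 54.2% of genes were called, 22.6% as lower. The degron-specific change, which takes off the difference on day 0, was -0.45 ± 0.27 and not called (limma adjusted p = 0.267), with an interval of -1.03 to 0.12. On day 0 the FPKM was 7.37 to 15.6 in degron lines and 10.6 to 22.1 in control lines. Degron line 2 differed there from parental cells by -0.65 ± 0.27, with a limma adjusted p of 0.138 without the replicate block and 0.0376 with it, where 25.9% of genes were called. Leaving out library 1 of degron line 2 gave -1.06 (limma adjusted p = 0.0399), and leaving out library 2 of parental cells gave -1.05 (limma adjusted p = 0.0323).

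SPI1 was expressed in every library and did not change with dTAGv1 beyond its error. Its FPKM on day 4 was 23.4 and 28.8 in degron line 1, 28.4 and 37.2 in degron line 2, 27.4 and 36.2 in the LMO2 control line, and 14.6 and 21.4 in parental cells. Library 2 was above library 1 in 12 of 12 line-by-day groups, and parental cells were lowest. The degron-specific change on day 4 was 0.02 ± 0.27 (limma adjusted p = 0.961) without the replicate block. That fit counts the difference between libraries 1 and 2 as error, and its interval of -0.55 to 0.60 does not exclude changes of up to those sizes. The change had the opposite sign, at -0.02, after TMM rescaling. On day 0, degron line 2 stood at 26.8 and 37.7 FPKM, the LMO2 control line at 23.3 and 34.7, and parental cells at 14.6 and 21.6. Against parental cells, SPI1 differed by 0.81 ± 0.27 in degron line 2, with a limma adjusted p of 0.0614 without the replicate block and 0.000769 with it; leaving out library 2 of parental cells gave 1.08 (limma adjusted p = 0.0443). In degron line 1 it differed by 0.37 ± 0.27 and was called neither without the block (limma adjusted p = 0.519) nor with it (limma adjusted p = 0.0871). In the LMO2 control line it differed by 0.65 ± 0.27, with a limma adjusted p of 0.353 without the block and 0.0147 with it, where 4.63% of genes were called. For degron over control lines on day 4, at 0.29 ± 0.19, limma gave an adjusted p of 0.216 without the block and 0.0190 with it, where 64.5% of genes were called.

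CEBPA, CEBPE and IRF8 were at or near the floor in K562 cells and failed the filter. CEBPA had 0 to 16 recovered reads per library, CEBPE 0 to 13 and IRF8 0 to 4, with IRF8 at 0 in 17 of 24 libraries. On day 4 CEBPA had 0 to 3 reads per degron library (6 in all) and 2 to 8 per control-line library (26 in all). These ranges overlap at 2 and 3 reads. In edgeR on the recovered reads, an analysis added after the values were seen, CEBPA differed between degron and control lines on day 4 by -2.46 ± 0.74 (adjusted p = 0.0109), where 50.8% of genes were called, and its degron-specific change was -1.99 ± 0.92 (adjusted p = 0.166). In FPKM, CEBPA reached at most 0.235, CEBPE 0.356 and IRF8 0.0325.

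The make-up of the C/EBP family shifted with CEBPD. Over the 5 C/EBP genes the summed level on day 4 was 95.3 to 106 FPKM in degron lines and 41.2 to 57.0 FPKM in control lines. CEBPD took 58.2% to 63.9% of that sum in degron lines and 12.2% to 15.2% in control lines. CEBPB took 28.5% to 32.6% in degron lines and 50.4% to 59.0% in control lines, and CEBPG took 7.57% to 8.99% in degron lines and 28.0% to 36.04% in control lines. CEBPD was the highest C/EBP gene in 4 of 4 degron libraries on day 4, 1 of 4 on each of days 1 and 0, and 0 of 12 control-line libraries, where CEBPB was highest. These shares follow from the levels above and are no further test.

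**Figure D3:**
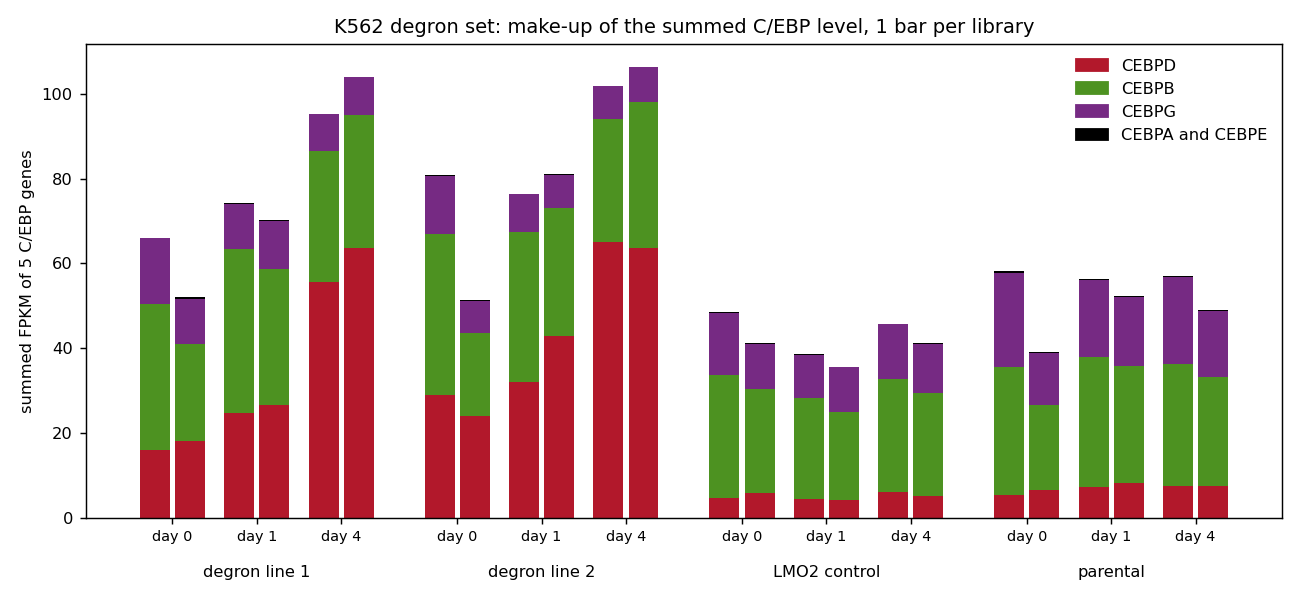
Summed FPKM of the 5 C/EBP genes in each K562 degron-set library, stacked by gene (1 bar per library, linear axis from 0). CEBPD fills 58.2% to 63.9% of the bar in degron libraries on day 4 and 9.28% to 16.7% in control-line libraries, and CEBPA with CEBPE is too small to see.

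By the rule of likeness (smallest mean absolute difference between centred log2 group means over the 12 line-by-day groups, among 12733 genes), the genes closest to CEBPD included SOCS1, at 0.20, and SPTAN1, at 0.23, where the median gene differed by 1.16. SOCS1, a cytokine-signalling inhibitor, stood at 26.0 to 41.1 FPKM in degron lines on day 4 and at 3.58 to 10.3 FPKM in control lines over all days. For CEBPG the closest were MARS1, at 0.068, SDHAF3, at 0.071, and ZYG11A, at 0.082, where the median gene differed by 0.36. MARS1, the cytosolic methionyl-tRNA synthetase, stood at 15.3 to 18.5 FPKM in degron lines on day 4 and at 19.3 to 39.6 FPKM in control lines. No other member had a span of at least 1 between its group means, the minimum for this measure.

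Among 10 partners and regulators of C/EBP proteins, 8 passed the filter and 2 were called in the degron-specific change on day 4, with a list median of 0.09. That comparison called 19.8% of all tested genes, so 2 of 8 lies near the share over all genes. TRIB2, a pseudokinase that promotes breakdown of C/EBPα, rose by 0.70 ± 0.11 (limma adjusted p = 0.000572), at 40.4 to 52.3 FPKM in degron lines and 13.2 to 18.1 FPKM in control lines. TRIB3, a stress-induced relative, fell by 0.95 ± 0.25 (limma adjusted p = 0.0142), at 11.1 to 12.5 FPKM in degron lines and 21.5 to 41.3 FPKM in control lines. TRIB2 was already higher on day 0 by 0.83 ± 0.08 (limma adjusted p = 5.24e-06), as was TRIB1, another C/EBPα-degrading pseudokinase, by 0.54 ± 0.15 (limma adjusted p = 0.0191). No other of the 8 was called on day 0, where 16.8% of all tested genes were.

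Of 10 other IRF and SPI factors 5 were tested and 1 was called on day 4, with a median of 0.50, where 19.8% of all tested genes were called. IRF1, an interferon-induced activator, rose by 0.94 ± 0.18 (limma adjusted p = 0.00241), at 2.42 to 3.30 FPKM in degron lines and 0.880 to 1.37 FPKM in control lines on day 4. Of 12 other myeloid transcription factors 7 were tested and 1 was called in the same comparison, with a median of 0.11. MYB, a progenitor factor, fell by 0.88 ± 0.28 (limma adjusted p = 0.0368), at 16.6 to 26.7 FPKM in degron lines and 25.8 to 44.0 FPKM in control lines on day 4. The ranges for MYB overlap, and those for IRF1 do not. GFI1, a transcriptional repressor, was higher on day 0 by 0.74 ± 0.13 (limma adjusted p = 0.000882), at 0.476 to 1.87 FPKM in degron lines and 0.0914 to 0.252 FPKM in control lines. It passed the filter through degron libraries only, so its test is a description.

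Of 26 myeloid effector genes 10 passed the filter and 6 were called higher on day 4, none lower, with a list median of 0.89. Of all tested genes 11.6% were called higher there. TYROBP, a signalling adaptor of myeloid cells, rose by 1.61 ± 0.24 (limma adjusted p = 0.000340), and ITGAM, the CD11b integrin chain, by 1.31 ± 0.22 (limma adjusted p = 0.000806). ITGAM stood at 56.4 to 68.9 FPKM in degron lines and 1.76 to 6.23 FPKM in control lines on day 4, and was higher on day 0 too, by 2.39 ± 0.15 (limma adjusted p = 1.27e-07). CSF3R, the G-CSF receptor, rose by 1.15 ± 0.19 (limma adjusted p = 0.000911) and reached 1 FPKM in degron libraries of day 4 alone (1.46 to 2.98 FPKM). CSF3R passed the filter through degron libraries only, so the count over tested genes is a description.

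Marker lists moved as well, in differing directions. The 10 erythroid markers summed to 325 to 406 FPKM in degron lines on day 4, 780.0 to 1187 FPKM in degron lines on day 0 and 711 to 1643 FPKM in control lines over all days. In the degron-specific change on day 4, 4 of the 10 fell and 1 rose, where 19.8% of all tested genes were called. KLF1, an erythroid activator, fell by 3.02 ± 0.20 (limma adjusted p = 7.56e-07) and GATA1 fell by 0.86 ± 0.13 (limma adjusted p = 0.000308). The 11 monocyte and granulocyte markers summed to 94.8 to 119 FPKM in degron lines on day 4, 29.1 to 38.3 FPKM in degron lines on day 0 and 6.19 to 19.6 FPKM in control lines. In each group 8 of the 11 were under 1 FPKM in all its libraries. These were not the same 8 throughout, since CSF3R reached 1 FPKM in degron libraries of day 4 alone. The sum thus rests on few genes, in degron lines on day 4 on ITGAM above all. The 6 lymphoid markers summed to 24.6 to 48.7 FPKM in degron lines on day 4, 52.1 to 107 on day 0 and 9.96 to 43.5 in control lines, most of it CD3D (21.0 to 45.2 FPKM in degron lines on day 4). CD3D was called higher on day 0, at 2.73 ± 0.32 (limma adjusted p = 3.39e-05). In the degron-specific change on day 4 CD3D was called lower, at -1.88 ± 0.45 (limma adjusted p = 0.00862). The 4 stromal markers summed to 1.39 to 3.75 FPKM in degron lines on day 4, 0.490 to 1.03 FPKM in degron lines on day 0 and 0.476 to 2.83 FPKM in control lines. Among them COL3A1, a collagen chain, was called higher on day 4 by 1.09 ± 0.21 (limma adjusted p = 0.00206), at 0.837 to 2.74 FPKM in degron lines and 0.0164 to 0.171 FPKM in control lines, and it passed the filter through degron libraries only. Megakaryocyte markers summed to at most 5.84 FPKM. The part of any other cell type in the CEBPD values was not tested.

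In HEL cells, in the fit without the replicate block, TAL1 knockdown gave no call among the 4 members that passed edgeR's filter. In that fit 4.22% of genes were called with siPool 1 and 1.05% with siPool 2, and 2975 and 1964 genes had an unadjusted p under 0.05. CEBPD was scarce there. It had 17, 37 and 33 counts with siPool 1, 20, 12 and 7 with siPool 2, and 15, 22 and 24 with the non-targeting pool. In TMM-scaled CPM these were 0.760, 1.65 and 1.56 with siPool 1, 0.798, 0.613 and 0.428 with siPool 2, and 0.563, 0.938 and 1.03 with the non-targeting pool. Libraries 2 and 3 of siPool 1 lay above all control libraries, and library 1 did not.

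Against the non-targeting pool, CEBPD differed by 0.65 ± 0.42 with siPool 1 (edgeR adjusted p = 0.467; 95% interval -0.26 to 1.56) and by -0.42 ± 0.45 with siPool 2 (edgeR adjusted p = 0.796; interval -1.40 to 0.55). The difference between the pools was 1.07 ± 0.44 (edgeR adjusted p = 0.250) and, without the replicate block, no member was called, where 2.76% of genes were. At these counts a change of the size seen in K562 cells on day 4 (1.31, on the log2(FPKM + 1) scale) lay inside the interval for siPool 1 and outside, above, that for siPool 2.

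CEBPB had 10.7, 21.1 and 19.3 CPM with siPool 1, 16.2, 20.6 and 25.1 CPM with siPool 2, and 11.6, 21.5 and 25.9 CPM with the non-targeting pool. CEBPG had 44.1, 63.3 and 70.7 CPM with siPool 1, 61.8, 78.6 and 81.5 CPM with siPool 2, and 50.4, 81.1 and 86.3 CPM with the non-targeting pool. For both genes library 1 was the lowest of its group in all 3 groups, and the groups overlap. CEBPG differed from the non-targeting pool by -0.29 ± 0.22 with siPool 1 (edgeR adjusted p = 0.547, 95% interval -0.77 to 0.19) and by 0.03 ± 0.22 with siPool 2 (edgeR adjusted p = 0.982). With the replicate number as a block, in a fit that called more genes, CEBPG was called lower with siPool 1 against the non-targeting pool and against siPool 2. SPI1 had 52.8 to 58.0 CPM with siPool 1, 54.4 to 69.6 CPM with siPool 2 and 57.2 to 70.9 CPM with the non-targeting pool, a change of -0.17 ± 0.11 with siPool 1 (edgeR adjusted p = 0.466). CEBPA had 6, 4 and 4 counts with siPool 1, 0, 4 and 0 with siPool 2, and 0 in all 3 control libraries. It failed the filter; with no filter, edgeR gave siPool 1 an adjusted p of 0.157. CEBPE had 0 to 3 counts and IRF8 0 in 9 of 9 libraries, where a count of 0 allows up to 0.111 to 0.189 CPM (3 counts per library; counting error only).

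TRIB2 rose with both pools, by 0.90 ± 0.09 with siPool 1 (edgeR adjusted p = 0.000122) and 0.61 ± 0.09 with siPool 2 (edgeR adjusted p = 0.00551). It stood at 268 to 315 CPM with siPool 1, at 221 to 255 CPM with siPool 2 and at 148 to 166 CPM with the non-targeting pool. It was the only one called of 10 partners and regulators, where 4.22% of all tested genes were called with siPool 1 and 1.05% with siPool 2. In the list of other myeloid factors, 2 of 9 tested were called higher with siPool 1: GFI1 by 2.05 ± 0.23 (edgeR adjusted p = 0.000314) and RARA, a retinoic acid receptor, by 0.41 ± 0.10 (edgeR adjusted p = 0.0452). With siPool 2 only RUNX1, a core-binding factor of blood cells, was called, and it fell by 0.36 ± 0.08 (edgeR adjusted p = 0.0445). None of 7 tested IRF and SPI factors was called with either pool. Of 16 tested myeloid effector genes 4 were called higher with siPool 1 (list median 0.41; all genes -0.02), among them ITGAM by 1.57 ± 0.16 (edgeR adjusted p = 0.000177) and LYZ, lysozyme, by 0.42 ± 0.09 (edgeR adjusted p = 0.0218), and none with siPool 2 (list median 0.07). FCGR1A, also among the 4 with siPool 1, was scarce, with a mean of 0.675 CPM over all HEL libraries. The pools share their control libraries. Erythroid markers summed to 2686 to 3174 CPM with siPool 1, 3109 to 3543 CPM with siPool 2 and 4704 to 4789.5 CPM with the non-targeting pool. The 6 lymphoid markers summed to 4.20 to 5.59 CPM with siPool 1, 3.83 to 5.32 CPM with siPool 2 and 1.80 to 3.62 CPM with the non-targeting pool. Of the 2 that were tested (list medians 1.01 with siPool 1 and 0.90 with siPool 2), NKG7, a granule protein of killer cells, was called higher with siPool 1 by 1.66 ± 0.35 (edgeR adjusted p = 0.0184), and none was called with siPool 2. The part of these markers in the changes was not tested.

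**Figure D4:**
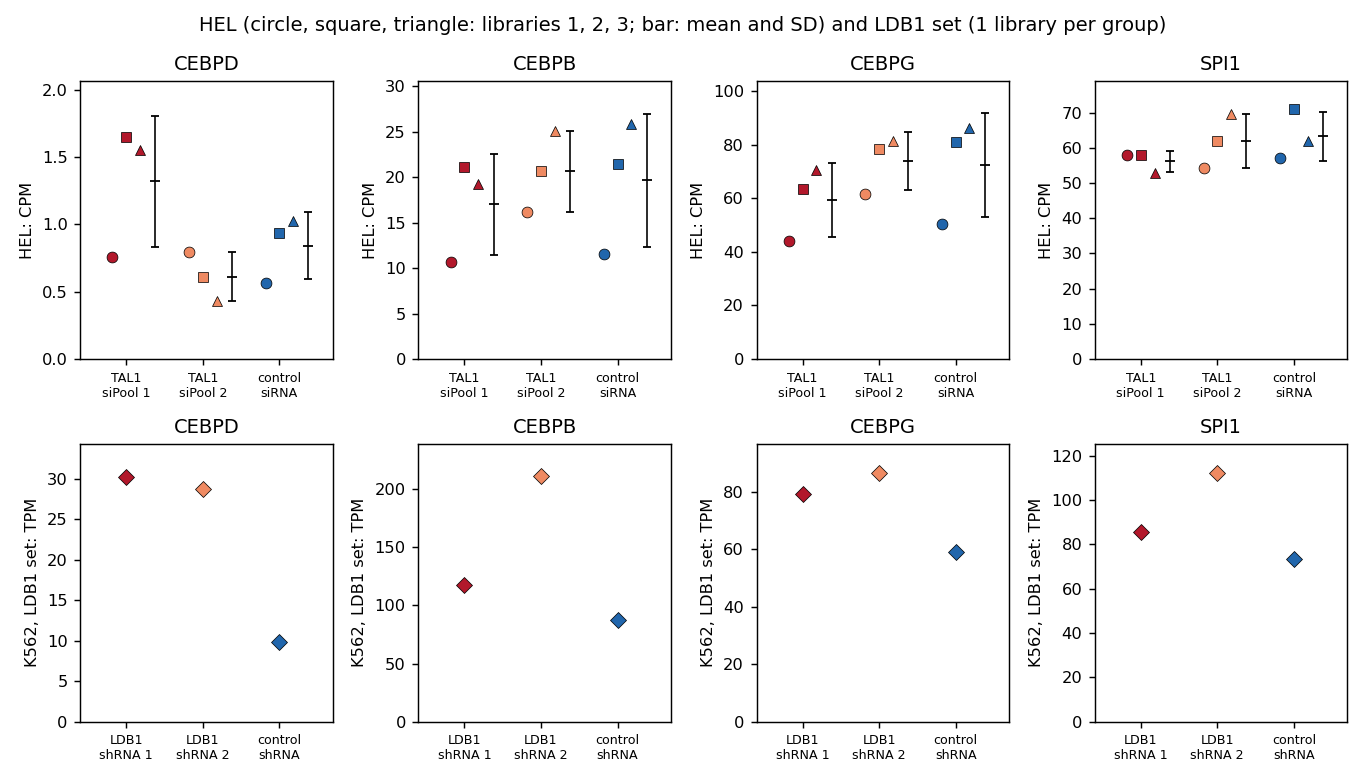
CPM in HEL libraries (upper row; mean and SD beside 3 libraries per group) and TPM in LDB1-set K562 libraries (lower row; 1 library per group) for CEBPD, CEBPB, CEBPG and SPI1, on linear axes from 0. With LDB1 shRNAs CEBPD stood at 30.2 and 28.7 TPM, against 9.85 TPM with the control shRNA, while in HEL cells it stayed under 1.66 CPM in each library.

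With LDB1 knockdown CEBPD was again higher. It stood at 30.2 TPM with shRNA 1 and 28.7 TPM with shRNA 2, against 9.85 TPM with the control shRNA, or 3.06-fold and 2.92-fold. On the log2(TPM + 1) scale this was 1.52 and 1.45, at the 94.2 and 95.3 percentile of the 12445 genes that reached 5 TPM in some library, where the median gene shifted by 0.18 and 0.13. Centred on the median gene, CEBPD was higher by 1.34 and 1.32. CEBPD was the only one of 4 listed members at least 2-fold higher in both, a size that 11.2% of genes reached, 8.94% as higher. CEBPB stood at 117 TPM with shRNA 1 and 211 TPM with shRNA 2, against 87.6 TPM with the control, log2 ratios of 0.42 and 1.26 that differ widely between the shRNAs. CEBPG stood at 79.0 and 86.5 TPM, against 59.0 TPM (0.42 and 0.54), and SPI1 at 85.5 and 112 TPM, against 73.2 TPM (0.22 and 0.61). With 1 library per group these differences have no replicate check. CEBPB remained the highest of the 3 listed C/EBP genes in all 3 libraries, and CEBPD made up 13.3% and 8.80% of their sum with the shRNAs and 6.30% with the control.

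By the same size rule, which 11.2% of all genes passed (8.94% as higher), TRIB1 alone of 8 partners and regulators was higher (1.43 and 1.59). Of 7 other myeloid factors, BCL6, a transcriptional repressor (2.27 and 2.11), and EGR1, an immediate early zinc finger factor (2.11 and 1.93), were higher and MYB lower (-2.25 and -1.78). Of 9 myeloid effector genes 4 were higher, among them S100A9, a calgranulin (2.78 and 2.18; 6.45 and 3.91 TPM with the shRNAs and 0.0834 TPM with the control, so that it reached 5 TPM through shRNA 1 alone), TYROBP (1.61 and 1.78) and ITGAM (1.61 and 1.54), and 1 was lower, with a list median of 0.77 against 0.16 for all genes. None of 5 IRF and SPI factors passed. Of 10 erythroid markers, 6 were lower, KLF1 among them (-2.25 and -1.68). Markers of other cell types were higher too. Of 3 listed lymphoid markers CD3D, a T cell receptor chain, passed (2.61 and 2.71), at 174 and 185 TPM with the shRNAs and 27.5 TPM with the control. The 1 listed stromal marker, COL1A1, a collagen chain, passed as well (1.29 and 1.41), at 8.38 and 9.21 TPM with the shRNAs and 2.83 TPM with the control. COL1A1 thus reached 5 TPM through the shRNA libraries alone, and its passing is a description. The part of these cell types in the ratios was not tested.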

How the data were processed

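The authors' deposited values are FPKM (fragments per length of gene and size of library) in the K562 degron libraries, raw counts per gene in HEL, and TPM (abundance per length, brought to a common total) in the LDB1 libraries. FastQC, STAR, featureCounts and the build hg19 were used per the submitters' processing notes; versions, annotation and strand setting are not given in the sources used here. Genes with near-identical copies are uncertain.

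FPKM were fitted as log2(FPKM + 1), a pseudocount that understates changes of low genes, in limma 3.58.1 (R 4.3.3; trend and robust) for the 15348 genes that reached 1 FPKM in 2 or more libraries, as 1 model of 12 line-by-day groups. For HEL, edgeR 4.0.16 was run on the counts (TMM, filterByExpr, quasi-likelihood test, 16688 genes, 1 fit of 9 libraries), with DESeq2 1.42.0 as an alternative. P-values are Benjamini-Hochberg adjusted over all tested genes of a comparison. LDB1 ratios are of TPM + 1, past at least 2-fold in both shRNAs with at least 5 TPM. Errors are SE for changes and SD for levels. Both tests were tried on simulated data.

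Whole reads were recovered from FPKM through exon lengths of GENCODE: 77.2% to 78.4% of values under 200 reads came out within 0.05 of a whole read. Of the 48318 genes kept, 14615 passed edgeR's filter, and 2153 of these were called in the degron-specific change on day 4. Lengths of CEBPA, CEBPD and IRF8 were taken as 2609, 2181 and 4860 bases, where GENCODE has 2631, 2178 and 5162. They were the nearest that gave whole reads among values under 200 reads. For CEBPD only LMO2 control libraries had such values (162.011 and 168.978). Larger CEBPD values were often not whole, as in parental cells on day 4 (376.279 and 322.274). The length of CEBPD and its recovered reads are therefore unsure. On day 4, CEBPB (948.758 in an LMO2 control library) and CEBPG (1362.674 in a parental library) were not whole either. Such values were rounded to whole reads.

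Replicate numbers pair the K562 libraries: deviations of same-numbered libraries correlated above 0.1 in 66 of 66 pairs of groups (0.119 to 0.662). In HEL this held in 6 of 9 pairs of the same number (0.087 to 0.363) and in 3 of 18 pairs of different number.

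Genes named besides the 7 members are LMO2, LDB1, TAL1 and GATA1, up to 4 called genes per list and comparison by smallest adjusted p (LDB1: by ratio), overlapping noncoding genes, and the 3 genes most like a member; some genes under this rule are not reported here. Members and lists were chosen with earlier results of these data known. Promoter windows are GRCh38.p14 and are not joined to hg19 values. Alternatives were another pseudocount, no filter, TMM rescaling, the replicate block, other control or degron lines alone, DESeq2, the compared groups alone, centred ratios and each library left out; the recovered reads and further contrasts were chosen after seeing the data.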

Additional observations from a re-analysis of the deposited data

Results flagged for a closer look

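Among the genes described beside the members, 4 differed between the TAL1 siRNA pools in HEL cells by a direct edgeR test of pool 1 against pool 2. ITGAM was higher with siPool 1 than with siPool 2 by 1.19 ± 0.16 (edgeR adjusted p = 0.00273), at 16.4 to 22.6 CPM with siPool 1, 7.66 to 9.66 CPM with siPool 2 and 5.97 to 7.54 CPM with the non-targeting pool. GFI1 was higher with siPool 1 by 1.14 ± 0.22 (edgeR adjusted p = 0.0151), at 4.72 to 6.23 CPM with siPool 1, 2.20 to 2.71 CPM with siPool 2 and 1.16 to 1.49 CPM with the non-targeting pool. FCER1G, an Fc receptor signalling chain, was higher with siPool 1 by 0.74 ± 0.10 (edgeR adjusted p = 0.00252), at 48.7 to 52.9 CPM with siPool 1, 28.6 to 32.6 CPM with siPool 2 and 37.4 to 42.3 CPM with the non-targeting pool. LYZ was higher with siPool 1 by 0.55 ± 0.09 (edgeR adjusted p = 0.00790), at 36.03 to 36.5 CPM with siPool 1, 23.9 to 26.1 CPM with siPool 2 and 26.7 to 27.5 CPM with the non-targeting pool. TAL1 itself stood at 165 to 190 CPM with siPool 1 and 179 to 195 CPM with siPool 2. None of the 4 tested members passed this test, run without the replicate block, where 2.76% of genes were called.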

How the results depend on the processing

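CEBPD stayed called in the degron-specific change on day 4 and on day 0 under every alternative run, and its change on day 4 was 1.24 to 1.38 with each of 16 libraries left out in turn. Its later rise, from day 1 to day 4, was lost with degron line 2 alone, where 0 members were called. Among the members that passed the filters, calls were gained 10 times, 7 of them with the replicate block (5 in K562, 2 in HEL) and 3 with a library left out; CEBPA, which failed the filter, was called on day 4 with recovered reads, at -2.46 (edgeR adjusted p = 0.0109). Counts of genes called moved more. With the replicate block they were 167 on day 1, 5471 on day 4, 2616 for day 4 against day 1, 4729 on day 0 and 4 between degron lines. With parental cells as the only control they were 0 on day 1, 1763 on day 4 and 424 for day 4 against day 1. With degron line 1 alone they were 0, 1398, 130 and, on day 0, 1197; with degron line 2 alone 5 on day 1 and 695 for day 4 against day 1. With no filter they were 40 on day 1, 23 in the control lines and 59 between degron lines; a pseudocount of 0.1 gave 1 between degron lines, and edgeR on recovered reads 0 there and 640 for day 4 against day 1. In HEL, deviations of same-numbered libraries correlated above 0.1 in 6 of 9 pairs. There the block gave 2888 genes for siPool 1, 1694 for siPool 2 and 2431 between pools. It also gave 1 member in each of siPool 1 and the pool difference: CEBPG, at -0.28 (edgeR adjusted p = 0.0101) and -0.34 (edgeR adjusted p = 0.00288). DESeq2 gave 1058, 363 and 786 genes, no filter 1084, 418 and 758, and the groups compared alone 100 for siPool 2. Leaving out single libraries gave 1 to 12 genes on day 1, 617 to 973 for day 4 against day 1, 1 between degron lines, 279 to 722 for siPool 1, 35 to 296 for siPool 2 and 128 to 592 between pools.

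Signs turned for changes smaller than their SE, none of them called, and leaving out a single library moved some of them widely. SPI1 was -0.0048 on day 1 and -0.023 on day 4 after TMM rescaling, -0.058 and -0.039 with degron line 2 alone and -0.029 on day 4 with recovered reads; from day 1 to day 4 it was 0.051 with parental cells as the only control and 0.020 with degron line 2 alone, and in control lines -0.0044 with parental cells only. In control lines CEBPB was -0.00070 after TMM rescaling and -0.0090 with recovered reads, and CEBPG -0.00099 and -0.023. With single libraries left out, SPI1 ranged from -0.13 to 0.19 on day 1, -0.11 to 0.16 on day 4, -0.17 to 0.15 from day 1 to day 4, -0.069 to 0.21 in control lines, -0.11 to 0.36 between degron lines and -0.12 to 0.060 with siPool 2. CEBPB ranged from -0.091 to 0.37 on day 4, -0.12 to 0.34 on day 0, -0.10 to 0.18 in control lines, -0.52 to 0.40 between degron lines, -0.48 to 0.045 with siPool 1 and -0.20 to 0.32 with siPool 2. CEBPG ranged from -0.34 to 0.074 on day 1, -0.16 to 0.24 in control lines, -0.62 to 0.20 between degron lines and -0.18 to 0.17 with siPool 2. The cause of these changes was not tested. Depth limits CEBPA, CEBPE and IRF8 in both cell lines and CEBPD in HEL.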
